A study of Mus musculus with 8 samples.

Results

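The genes described here are 36 listed genes of the cell cycle, 26 of mitosis and 10 of DNA replication, of which 33 were measured among 22180 genes of the deposited array table. Members were taken by symbol from probe sets that carry exactly 1 gene symbol. 24 mitotic and 9 replication members were found. The probe sets of Ncapg and Ccne2 carry a further gene's symbol and were left out, and Ccnb1 was not analysed here.

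RNA came from total brain of mice immunized with MOG (myelin oligodendrocyte glycoprotein), taken on day 14, which the labels call the maximum of the disease. Immunization with this myelin protein gives a T cell driven model of multiple sclerosis. The 4 groups were wild-type mice with PBS, wild-type mice with NDP-MSH, C57BL/6Je/e mice with PBS and C57BL/6Je/e mice with NDP-MSH, with 2 arrays each. C57BL/6Je/e mice (e/e from here on) have a yellow coat in place of black, and their Mc1r, the melanocortin receptor of pigment cells, does not work. NDP-MSH is a long-lived variant of alpha-MSH, the peptide hormone that acts on melanocortin receptors. Each treated mouse received 5 µg into the vein on days 8, 10 and 12. All groups share the immunization and the day, and age is not given. Nothing in the labels says that the 2 arrays of a group stem from separate mice. The pairs of e/e PBS and wild-type NDP-MSH arrays differ in sex-linked or regional genes (given below) and are not repeats of 1 RNA. In e/e NDP-MSH the spread behind the p-values may be technical. The wild-type PBS arrays lay apart in interferon-gamma-induced genes, with medians of -0.29 and 0.63. The source of their spread was not tested.

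A dividing cell first copies its DNA and then separates the copies. In S phase, MCM proteins that Cdc6 helped to load at origins unwind DNA, and enzymes such as ribonucleotide reductase supply the building blocks. In mitosis, cyclin-dependent kinase 1 starts the division, kinesin motors build the spindle, checkpoint kinases watch the chromosomes and the anaphase-promoting complex ends the process by marking cyclins for destruction. E2F factors are known to drive the replication genes at the border of G1 and S. The mitotic genes are known to be switched on later through CCAAT boxes and a short element called CHR, bound by the DREAM and B-MYB-MuvB complexes. Few cells of the adult brain divide. In an inflamed brain, dividing cells can be T cells, microglia, infiltrating myeloid cells, vessel cells and oligodendrocyte precursors, beside the neural precursors of the ventricular wall.

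The letters of the members' promoters differ between the roles for CHR and E2F-like sites but not for CCAAT boxes, and the choice of members by function did not use them. A window from 250 bases before to 50 bases after the transcription start was read from RefSeq sequence (GRCm38.p6) for 29 of the 33 members, using the first start listed for each of the 2 members that have 2. The tables used here matched no start for Ccna2, Aurkb, Tpx2 and Kif20a. A CHR (TTTGAA or TTCGAA, either strand) was in 16 of 20 mitotic promoters and 2 of 9 replication promoters, against 19.4% of 27025 promoters of all genes. A CCAAT box (CCAAT, either strand) was in 16 of 20 and 7 of 9, against 37.9%, so it was about as frequent in both roles. An E2F-like site (TTGGCGC or TTCGCGC or TTCCCGC or TTGCCGC, either strand) was in 2 of 20 mitotic and 7 of 9 replication promoters, against 9.69%. CHR and CCAAT occurred together in 15 of 20 mitotic promoters, 2 of 9 replication promoters and 7.7% of all. The reverse of a CCAAT box can overlap an E2F-like site, and E2F-like sites of both strands can overlap each other. A match is a description of letters and not a bound site.

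**Figure D1:**
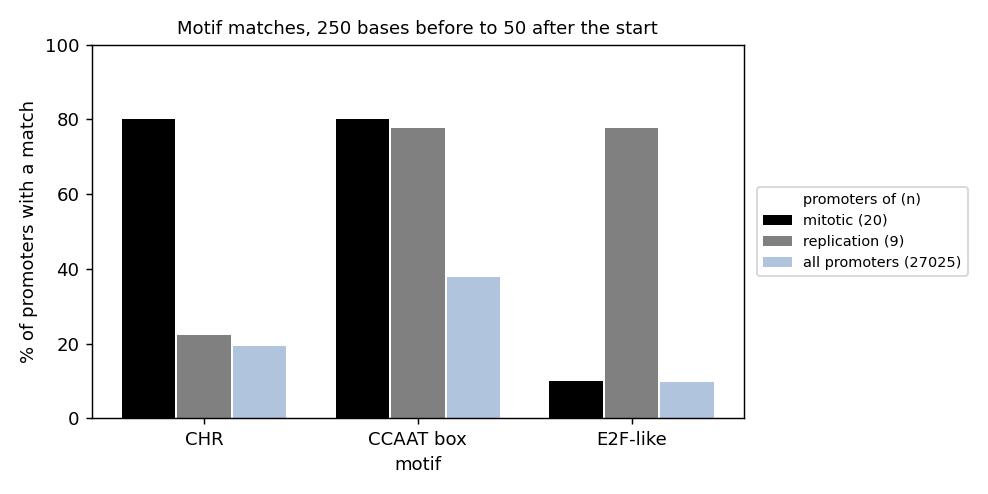
The bars give the percent of promoters with a match to each motif (y axis, from 0 to 100) for 20 mitotic members, 9 replication members and 27025 promoters. CHR matches stand at 80.0% in mitotic promoters and 22.2% in replication promoters, E2F-like matches at 10.0% and 77.8%, and CCAAT matches at 80.0% and 77.8%.

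Promoters of 5 members that the results turn on are shown, chosen for the most kinds of motif and so not typical of their roles, as the 250 bases before the start, 5′ to 3′ on the gene's strand, with CHR, CCAAT and E2F-like matches in capitals. Mki67, Cdk1 and Kif11 are mitotic members, and E2f8 and Mcm6 are replication members.
Mki67, chr7:135716380-135716629, minus strand: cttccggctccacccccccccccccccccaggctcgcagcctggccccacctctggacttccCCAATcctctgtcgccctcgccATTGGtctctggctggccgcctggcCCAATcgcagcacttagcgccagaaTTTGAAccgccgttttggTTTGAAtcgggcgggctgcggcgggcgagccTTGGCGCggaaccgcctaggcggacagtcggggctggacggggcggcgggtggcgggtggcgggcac
Cdk1, chr10:69352913-69353162, minus strand: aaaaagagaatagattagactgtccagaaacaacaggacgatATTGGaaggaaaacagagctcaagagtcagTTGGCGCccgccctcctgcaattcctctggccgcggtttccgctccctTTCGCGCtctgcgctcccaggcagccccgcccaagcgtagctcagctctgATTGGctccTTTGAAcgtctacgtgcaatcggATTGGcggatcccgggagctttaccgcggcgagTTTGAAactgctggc
Kif11, chr19:37376132-37376381, plus strand: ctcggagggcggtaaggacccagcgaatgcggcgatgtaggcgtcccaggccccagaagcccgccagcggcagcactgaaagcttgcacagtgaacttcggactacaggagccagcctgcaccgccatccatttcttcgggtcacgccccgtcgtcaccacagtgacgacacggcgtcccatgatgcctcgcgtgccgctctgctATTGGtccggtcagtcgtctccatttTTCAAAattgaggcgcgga
E2f8, chr7:48881597-48881846, minus strand: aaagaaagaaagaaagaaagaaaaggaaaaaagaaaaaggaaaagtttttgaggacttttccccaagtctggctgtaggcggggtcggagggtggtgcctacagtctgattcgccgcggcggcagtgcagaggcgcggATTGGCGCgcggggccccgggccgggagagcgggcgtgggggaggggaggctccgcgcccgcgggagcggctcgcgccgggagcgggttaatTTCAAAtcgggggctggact
Mcm6, chr1:128359706-128359955, minus strand: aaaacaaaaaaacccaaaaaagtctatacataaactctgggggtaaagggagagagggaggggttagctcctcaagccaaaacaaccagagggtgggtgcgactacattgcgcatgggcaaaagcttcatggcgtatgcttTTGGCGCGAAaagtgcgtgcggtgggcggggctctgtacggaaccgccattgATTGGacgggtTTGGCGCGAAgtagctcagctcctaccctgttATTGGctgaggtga
In Mki67, 3 CCAAT boxes precede 2 CHRs. Cdk1 has 3 CCAAT boxes, 2 CHRs and 2 E2F-like sites, and is thus 1 of the 2 mitotic members with an E2F-like match, the other being Mki67. Kif11 has a CCAAT box at -45 and a CHR at -19, counted from the start. E2f8 has all 3 motifs, but its CCAAT and E2F-like matches overlap each other. It is 1 of the 2 replication members with a CHR, the other being Mcm2. In Mcm6 4 E2F-like matches form 2 overlapping pairs beside 2 CCAAT boxes.

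Values are the authors' log2 values, with base 2 assumed because it is not stated, and each gene is centred on its own median over the 8 arrays. They show differences between arrays and no absolute level. Changes are log2 differences ± SE of a limma fit over all 8 arrays, and adjusted p is Benjamini-Hochberg over 22180 genes. The rounding step left in the values places a probe set's lowest signal before centring, among values near its median. This lowest signal was at 4 to 8 on this scale for 33 of the 34 member probe sets. It was at 8 or above for that of Mcm6, and single arrays can lie higher. Of all probe sets, 22.9% lay at 8 or above, and so did each of the 11 measured genes of 12 that define neurons, astrocytes and oligodendrocytes (Snap25, Gfap and Mbp among them), as the label brain implies. Signals of different probe sets do not rank transcripts. Fewer dividing cells and less RNA per dividing cell cannot be told apart in whole brain RNA.

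Several arrays stood apart in genes outside the cell cycle. The median of 8 cerebellar granule cell genes was -2.19 and -1.86 in wild-type NDP-MSH 1 and 2, and 5 of these genes were lower in the wild-type comparison (limma, adjusted p under 0.05). The other arrays ranged from -0.16 to 0.36. Anterior pituitary genes lay at a median of 2.31 in wild-type NDP-MSH 1, against -0.07 to 0.05 elsewhere. The median of 4 olfactory bulb genes was 0.33 in wild-type NDP-MSH 2, against -0.11 to 0.045 elsewhere. Of these genes only Cdhr1 was far out there, at 2.23, beside Th at 0.33, Eomes at 0.33 and Tbx21 at 0.29. Th reached 0.35 in wild-type PBS 2 and Eomes 0.77 in e/e PBS 2. The Y-linked gene Eif2s3y was high in 3 arrays, at 2.78 and 2.87 for e/e NDP-MSH and 2.04 for e/e PBS 2, with -0.19 to 0.02 elsewhere. Xist was low in both e/e NDP-MSH arrays, at -4.46 and -4.56, with -0.82 for e/e PBS 2 and 0.56 for e/e PBS 1. In wild-type mice Xist lay at 0.56 and 0.67 under PBS and at 0.625 and -0.56 in NDP-MSH 1 and 2.

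Over the 8 arrays the members moved largely as a block. In wild-type mice the median of the 24 mitotic members was -0.05 and 0.06 under PBS and 0.21 and 0.23 under NDP-MSH. In e/e mice it was -0.12 and 0.13 under PBS and -0.12 and -0.17 under NDP-MSH, each pair given as array 1 and array 2. The 9 replication members followed, at -0.05 and 0.00, 0.13 and 0.21, -0.06 and 0.10, and -0.13 and -0.21 in the same order. Both roles were thus highest after NDP-MSH in wild-type mice and next in e/e PBS 2. The lowest medians were those of e/e PBS 1 and both e/e NDP-MSH arrays. The replicate SD of these array medians, pooled over the groups, was 0.099 for mitotic and 0.071 for replication members. The median of all 22180 genes stayed between -0.01 and 0.02 in every array.

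Mitotic members above their own median numbered 23 of 24 in wild-type NDP-MSH 1, 21 in wild-type NDP-MSH 2 and 22 in e/e PBS 2, but 1 in e/e PBS 1, 3 in e/e NDP-MSH 1 and 0 in e/e NDP-MSH 2. Wild-type PBS 1 and 2 held 7 and 19. The roles differed in which array held the maximum. Of the replication members 7 of 9 were highest in wild-type NDP-MSH 2 and 0 in wild-type NDP-MSH 1, while of the 24 mitotic maxima 8 fell in wild-type NDP-MSH 1, 7 in its replicate 2, 5 in e/e PBS 2 and 4 in wild-type PBS 2. Wild-type NDP-MSH 2 also held the maximum of 25% of all genes, against 8.73% to 12.6% for each other array, and this difference between the roles was not tested.

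**Figure D2:**
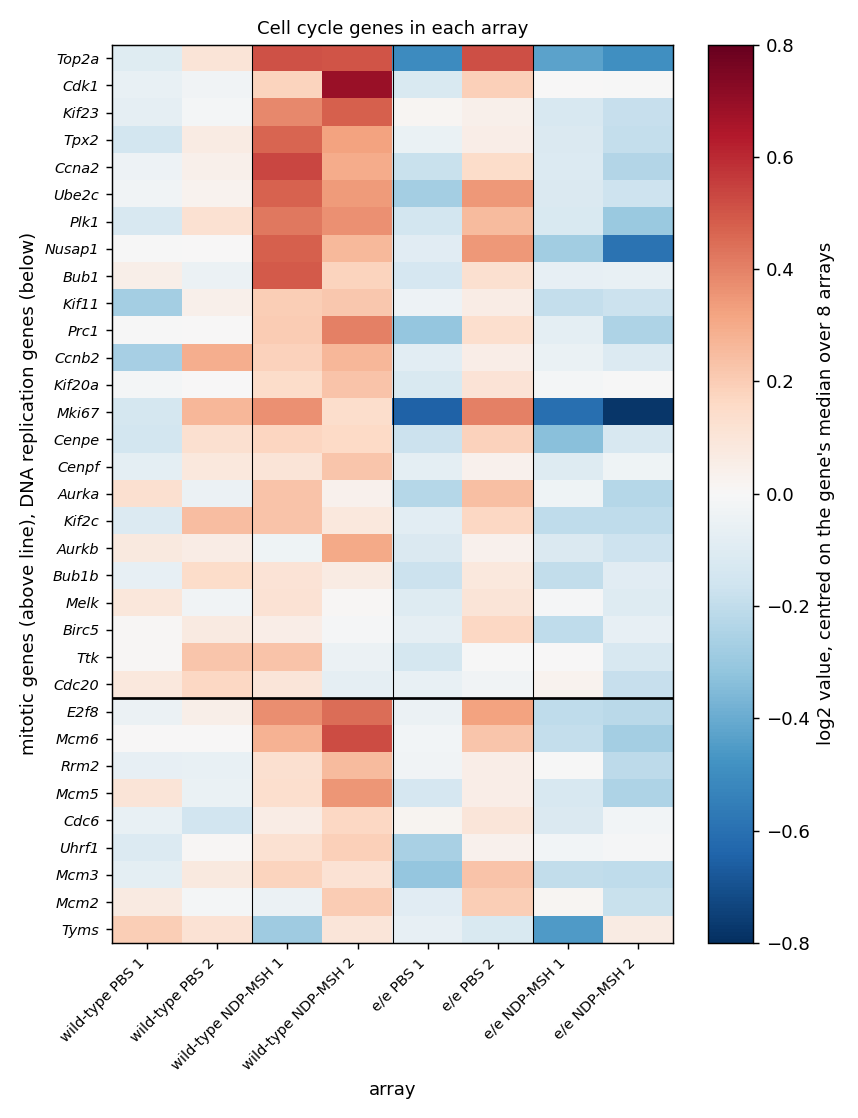
Each row is a member and each column an array, and colour gives the log2 value centred on the gene's median (red above, blue below, colours end at -0.8 and 0.8). Mitotic genes are above the line and replication genes below it, each sorted by the wild-type difference, and the wild-type NDP-MSH and e/e PBS 2 columns are mostly red.

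**Figure D3:**
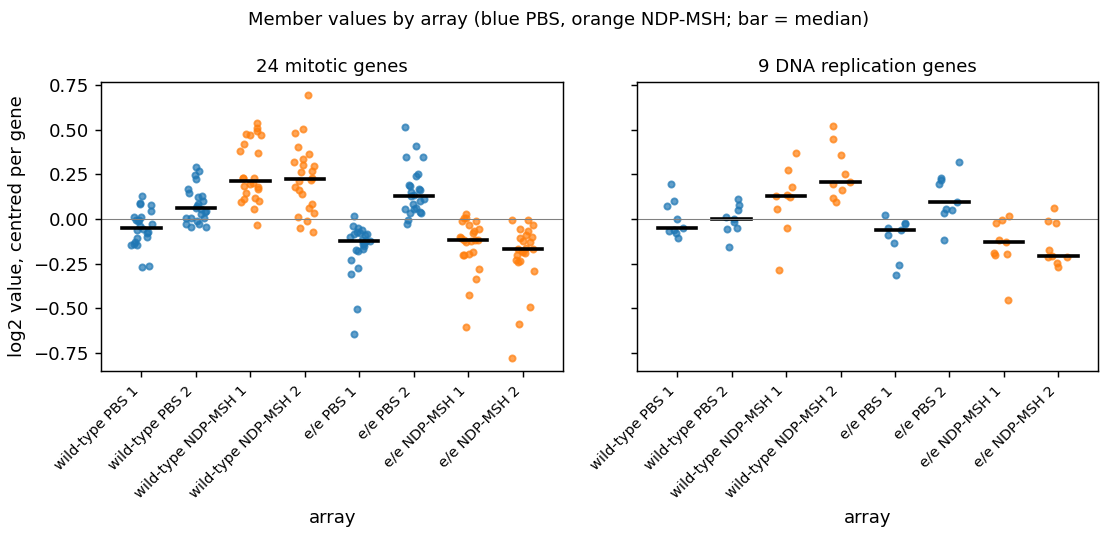
Points are members and bars their medians in each array (x axis), on the centred log2 scale (y axis), with PBS arrays in blue and NDP-MSH arrays in orange. The medians of both roles are highest after NDP-MSH in wild-type mice, while the e/e PBS arrays lie apart, at -0.12 and 0.13 for the mitotic genes.

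How the wild-type arrays differed after NDP-MSH is the first question. Of the 33 members 29 were higher after NDP-MSH and 4 lower (55% and 45% of all genes), with a median difference of 0.21, against 0.02 over all genes. No member passed an adjusted p of 0.05 in limma, a threshold that 0.176% of all genes passed. At an unadjusted p under 0.05 there were 11 higher members and 0 lower (6.72% and 5.6% of all genes). In 21 of 33 members both NDP-MSH arrays lay above both PBS arrays (25.3% of all genes), and in 1, Tyms, they lay below (18.9%). The number of members at an unadjusted p under 0.05 in limma depended on which array was left out. The median difference was 0.18 without wild-type PBS 1 and 0.27 without wild-type PBS 2. It was 0.24 without wild-type NDP-MSH 1 and 0.18 without wild-type NDP-MSH 2. Leaving out e/e PBS 1 or e/e PBS 2 does not change the wild-type differences, only the shared spread. Both wild-type NDP-MSH arrays also carry the regional differences given above. The low cerebellar signal was in both of them and in neither wild-type PBS array. Genes of oligodendrocytes (Mag, Mbp and Mog) moved against the members, with 3 of 3 lower and not overlapping in wild-type mice (median -0.29) and 3 of 3 higher in e/e mice (median 0.14). Mog differed by -0.45 ± 0.10 in wild-type mice (limma, adjusted p = 0.207). The 4 astrocyte genes had a wild-type median of -0.10. Aqp4 was the lowest of them, at -0.48 ± 0.14 (limma, adjusted p = 0.283), while Aldoc, Slc1a2 and Gfap differed by -0.17, -0.03 and 0.01. The part of these differences in the members' values was not tested. In this comparison it cannot be told apart from an effect of NDP-MSH.

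Among the spindle genes, Kif23, a kinesin of the midbody that completes the split of the cell, had values of -0.07 and -0.01 under PBS, against 0.38 and 0.48 under NDP-MSH. The groups do not overlap, and the difference of 0.48 ± 0.07 gave the smallest p of all members (limma, unadjusted p = 0.000256, adjusted p = 0.09). Its adjusted p lay between 0.0868 and 0.541 over the alternative settings. Tpx2, which activates Aurora A at the spindle, lay at -0.14 and 0.06 against 0.47 and 0.32 (0.43 ± 0.10, adjusted p = 0.203). Kif11, the motor that pushes the spindle poles apart, lay at -0.27 and 0.04 against 0.20 and 0.21 (0.32 ± 0.11, adjusted p = 0.32). Both genes were higher in each NDP-MSH array than in either PBS array. Prc1, which bundles microtubules between the poles, and Kif20a differed by 0.30 ± 0.15 and 0.19 ± 0.09, while Kif2c, which takes microtubules apart at kinetochores, differed by 0.08 ± 0.14.

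Of the engine of mitosis, Ccna2, the cyclin of S and G2 phase, lay at -0.04 and 0.04 in PBS and 0.54 and 0.29 in NDP-MSH (0.42 ± 0.13, adjusted p = 0.299). Cdk1, its kinase partner, lay at -0.06 and -0.03 in PBS but at 0.18 and 0.69 in NDP-MSH 1 and 2 (0.48 ± 0.17, adjusted p = 0.338), so the NDP-MSH arrays were far apart. Plk1, a mitotic kinase, differed by 0.40 ± 0.15, and Aurka and Aurkb, the Aurora kinases, by 0.09 ± 0.16 and 0.07 ± 0.12. Members that act on chromosomes were led by Top2a, the topoisomerase that untangles DNA, with the largest mitotic difference, 0.51 ± 0.28. Top2a lay at -0.10 and 0.10 in PBS and at 0.51 in both NDP-MSH arrays, and its large SE comes from the e/e PBS arrays, at -0.50 and 0.52, since the fit shares 1 spread over all groups. Mki67, the gene of the Ki-67 antigen used to stain dividing cells, lay at -0.14 and 0.27 against 0.37 and 0.14, and overlapped.

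Members that end mitosis went different ways within these errors. Ube2c, the enzyme that feeds ubiquitin to the anaphase-promoting complex, differed by 0.41 ± 0.18, whereas Cdc20, the activator of that complex, had the lowest mitotic difference, -0.11 ± 0.10, with 0.08 and 0.17 in PBS and 0.10 and -0.07 in NDP-MSH. The checkpoint kinase genes Bub1, Bub1b and Ttk differed by 0.34 ± 0.13, 0.05 ± 0.11 and -0.03 ± 0.12. The other mitotic members lay between these values.

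Replication members had a median wild-type difference of 0.22, beside 0.20 for mitotic members. The gap of -0.02 between the roles is smaller than its replicate SD of 0.047 between arrays. Mcm6, a subunit of the replicative helicase, lay at 0.00 in both PBS arrays and at 0.28 and 0.52 in NDP-MSH (0.40 ± 0.11, adjusted p = 0.266). E2f8, an E2F family repressor that is itself an E2F target, lay at -0.05 and 0.05 against 0.37 and 0.45 (0.41 ± 0.12, adjusted p = 0.281). Cdc6, which helps to load MCM proteins at origins, lay at -0.06 and -0.15 against 0.06 and 0.16 (0.22 ± 0.08, adjusted p = 0.352). In all 3 genes the groups do not overlap. The other helicase subunits Mcm5, Mcm3 and Mcm2 differed by 0.22 ± 0.11, 0.15 ± 0.16 and 0.05 ± 0.13, and differences between subunits were not tested. Tyms, thymidylate synthase, was the lowest member, at 0.19 and 0.11 in PBS and -0.29 and 0.10 in NDP-MSH (-0.25 ± 0.18, adjusted p = 0.609). Rrm2, the small subunit of ribonucleotide reductase, differed by 0.25 ± 0.09 as the mean of 2 probe sets that disagree. Probe set 1 lay at 0.26 and 0.51 in NDP-MSH against -0.14 and -0.11 in PBS, and probe set 2 at -0.01 and 0.00 against 0.01 and 0.00.

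**Figure D4:**
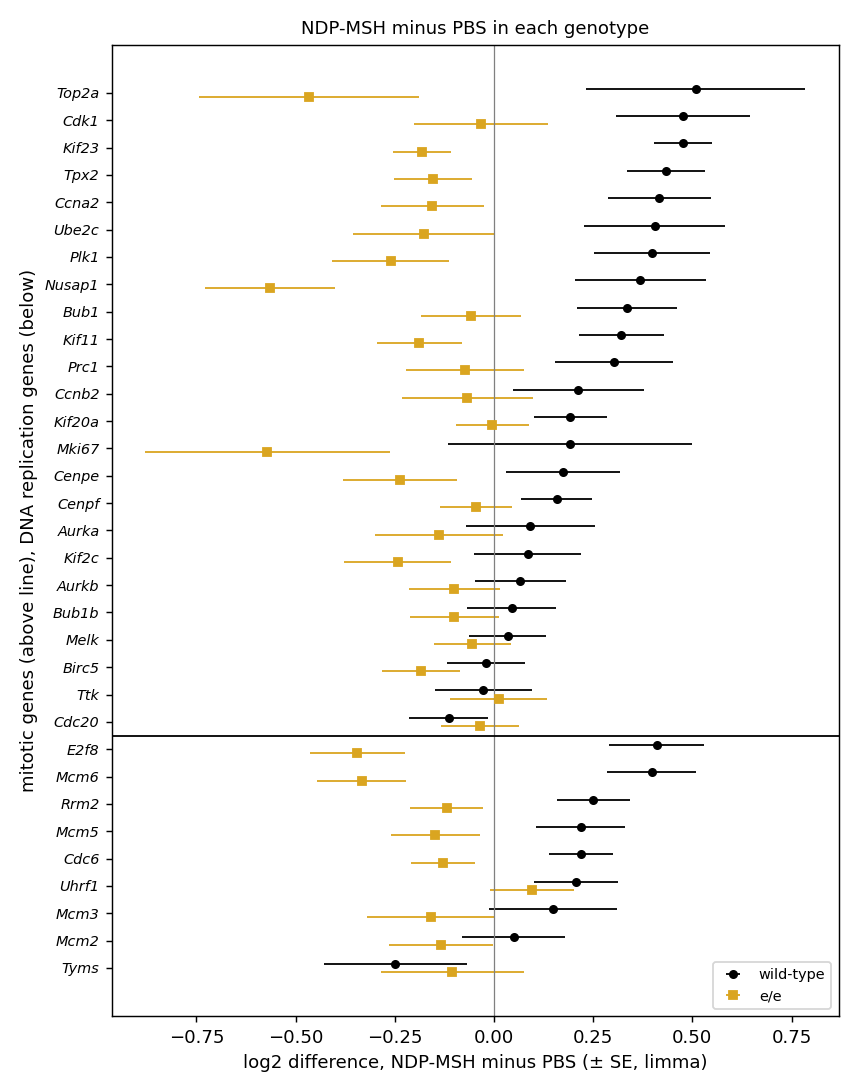
Points give the log2 difference of NDP-MSH minus PBS with its SE from limma (x axis) for each member (y axis), in wild-type (black circles) and e/e mice (yellow squares). 29 of 33 members are above 0 in wild-type and 31 of 33 below 0 in e/e mice, and no single difference passed the adjusted threshold.

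The same question was asked in e/e mice. Of the 33 members 31 were lower after NDP-MSH and 2 higher (46.3% and 53.7% of all genes), with a median of -0.14, against 0.01 over all genes. No member passed in limma, as no gene of the table did (0%), and the smallest adjusted p among members was 1. At an unadjusted p under 0.05 there were 4 lower and 0 higher members (3.56% of all genes, 1.78% in each direction). In 9 of 33 both NDP-MSH arrays lay below both PBS arrays (14.3% of all genes). The direction rests on e/e PBS 2. Without it 17 members were lower and 16 higher, with a median of -0.02, and at an unadjusted p under 0.05 there were 0 lower and 1 higher, Uhrf1, at 0.24 (1.46% and 1.1% of all genes). Without e/e PBS 1 all 33 were lower with a median of -0.24, 13 of them at an unadjusted p under 0.05, while the share of all genes lower at that p rose from 1.78% to 4.1% and the calls over all genes from 0 to 51. Leaving out e/e NDP-MSH 1 gave 2 such members (1.61% of all genes), and leaving out e/e NDP-MSH 2 gave 0 (1.07%). Besides the e/e NDP-MSH arrays, e/e PBS 2, on which the direction rests, carries Y-linked signal, and e/e PBS 1 does not stand above the wild-type arrays in it. The part of sex in the members' values was not tested.

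Mki67 had the largest e/e difference, -0.57 ± 0.31, and shows the pattern most plainly. Its PBS values were -0.65 and 0.41 and its NDP-MSH values -0.60 and -0.78, so e/e PBS 2 alone was high. Top2a did the same, with -0.50 and 0.52 in PBS and -0.43 and -0.49 in NDP-MSH (-0.47 ± 0.28). Without e/e PBS 1, Top2a passed the threshold at -0.98 (limma, adjusted p = 0.0351), the only member to do so in any setting run, and without e/e PBS 2 it differed by 0.04. Nusap1, a microtubule-bundling spindle protein, lay at -0.09 and 0.35 in PBS and -0.28 and -0.59 in NDP-MSH (-0.56 ± 0.16, limma, adjusted p = 1). Here the groups do not overlap, and without e/e PBS 2 its difference was -0.34. Birc5 (survivin, of the chromosomal passenger complex) and Kif2c differed by -0.18 ± 0.10 and -0.24 ± 0.14, with e/e PBS 2 the highest e/e array in both, at 0.17 and 0.16.

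Kif23 differed by -0.18 ± 0.07 in e/e mice, with PBS at 0.01 and 0.04 and NDP-MSH at -0.13 and -0.18. It depended little on the choice of PBS array, at -0.19 with array 1 left out and -0.17 with array 2 left out. Mcm6 lay at -0.02 and 0.22 against -0.19 and -0.27 (-0.33 ± 0.11), and the difference became -0.45 when e/e PBS 1 was left out and -0.21 when e/e PBS 2 was. E2f8 lay at -0.05 and 0.32 against -0.20 and -0.21 (-0.34 ± 0.12), and the difference became -0.53 and -0.16 in the same way. Cdc6 lay at 0.02 and 0.10 against -0.12 and -0.02 (-0.13 ± 0.08). In these 4 genes the groups do not overlap, and e/e PBS 1 lay closer to e/e NDP-MSH than e/e PBS 2 did. The replication median was -0.13, beside -0.15 for mitotic members, and -0.08 without e/e PBS 2. The highest members were Uhrf1, which recruits the maintenance DNA methyltransferase to new DNA (0.10 ± 0.11), and Ttk (0.01 ± 0.12).

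The difference of the effects, wild-type minus e/e, compares the NDP-MSH minus PBS differences of the genotypes. The regional differences of the wild-type NDP-MSH arrays and the Y-linked signal among the e/e arrays enter it as well. Their part cannot be told apart from a genotype's response to NDP-MSH. It was positive in 30 members and negative in 3 (52.8% and 47.2% of all genes), with a median of 0.37, against 0.01 over all genes. No member passed in limma and no gene of the table did (0%), and at an unadjusted p under 0.05 there were 11 higher and 0 lower members (3.67% and 4.05% of all genes). Leaving out e/e PBS 1 turned the 11 into 21 (4.38% of all genes were higher at that p), and leaving out e/e NDP-MSH 2 into 7 (2.12%). In 28 of 33 members the effect was positive in wild-type and negative in e/e mice (24.9% of all genes). In 7 the groups overlapped in neither comparison, with opposite signs (3.17% of all genes), and these were the mitotic Kif11, Kif23, Nusap1 and Tpx2 and the replication genes Cdc6, E2f8 and Mcm6. Their differences of effects were 0.51 ± 0.15, 0.66 ± 0.10, 0.93 ± 0.23, 0.59 ± 0.14, 0.35 ± 0.11, 0.75 ± 0.17 and 0.73 ± 0.16 in that order. The smallest adjusted p was that of Kif23 (limma, adjusted p = 0.277). Without e/e PBS 2 the median of all members was 0.23.

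Under PBS the genotypes did not separate, with 15 members higher and 18 lower in e/e than in wild-type mice (50.1% and 49.9% of all genes) and a median of 0.00 in e/e PBS minus wild-type PBS. No member passed in limma (0% of all genes did), and 0 had an unadjusted p under 0.05 (4.91% of all genes, 2.35% higher and 2.56% lower). The near-zero median averages e/e PBS arrays that lie apart, since it was 0.13 when e/e PBS 1 was left out and -0.14 when e/e PBS 2 was. The e/e PBS arrays enter this comparison and the previous ones, so these values are not independent of each other.

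Other genes of the same machinery, from lists of 44 mitotic and 46 replication genes beyond the members, had smaller medians of the same sign. In wild-type mice 35 of 44 measured mitotic genes were higher (median 0.10, 7 higher and 0 lower at an unadjusted p under 0.05), beside 55% higher and 6.72% higher at that p among all genes. The e/e comparison had 34 of 44 lower (median -0.06), beside 46.3%. Ndc80 and Nuf2, subunits of the kinetochore complex that grips microtubules, had the smallest wild-type p. In wild-type mice Ndc80 was 0.03 and -0.17 under PBS and 0.70 and 0.72 under NDP-MSH, and in e/e mice -0.03 and 0.59 under PBS and -0.08 and -0.24 under NDP-MSH. Its wild-type difference of 0.78 ± 0.18 was larger than that of any member (limma, adjusted p = 0.217), and Nuf2 differed by 0.45 ± 0.10. In e/e mice the smallest p belonged to Dlgap5 (-0.23 ± 0.08) and Kif15 (-0.27 ± 0.10), both spindle proteins. None of these passed over all genes.

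Of 44 further replication genes 28 were higher in wild-type mice (median 0.05, 4 higher and 1 lower at an unadjusted p under 0.05), shares near those of all genes (55% and 6.72%), and 27 were lower in e/e mice (median -0.03, beside 46.3%). In wild-type mice Prim2, of the primase, and Chaf1b, of a chromatin assembly factor, had the smallest p (0.28 ± 0.08 and 0.26 ± 0.09). The lower gene was Lig1, which joins Okazaki fragments (-0.30 ± 0.12), named here after its value was seen. In e/e mice the smallest p belonged to Gins3 (-0.26 ± 0.11) and Mcm10 (-0.15 ± 0.08), both replication fork proteins. None passed over all genes. Of 20 genes of G1 control 17 were higher in wild-type mice, with a median of 0.14 and 6 of them at an unadjusted p under 0.05 (55% and 6.72% of all genes). The 3 lower genes, named after their values were seen, were Cdkn1b (p27, -0.19 ± 0.09), Btg2 (-0.18 ± 0.13) and Rb1 (-0.16 ± 0.10). None of these had an unadjusted p under 0.05 in limma. They restrain the cycle, but other genes that restrain it were higher, such as Cdkn2d (0.32 ± 0.13), Cdkn2a (0.25 ± 0.13) and Cdkn2c (0.15 ± 0.10). The smallest p belonged to Cdkn1a, the p21 inhibitor that halts the cycle (0.39 ± 0.11), and Ccnd1, cyclin D1, which starts it (0.29 ± 0.09). In e/e mice 15 of 20 were lower (median -0.09), and Cdkn1c, the inhibitor p57, was higher by 0.26 ± 0.08. No gene of this list passed over all genes (limma, smallest adjusted p = 0.276 in wild-type and 1 in e/e mice).

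Marker genes of cells that can divide moved with the members in some arrays and not in others. The table is centred, so no marker can be said to be at 0. In wild-type mice the median of 8 T cell genes (of 10 listed) was -0.01 and 0.23 under PBS and 0.47 and 0.12 under NDP-MSH, and in e/e mice -0.27 and 0.10 under PBS and -0.35 and -0.57 under NDP-MSH. All 8 T cell genes were higher in the wild-type comparison (median 0.12) and all 8 lower in the e/e comparison (median -0.34), with Cd3e at 1.08 in wild-type NDP-MSH 1 and -0.04 in wild-type NDP-MSH 2. Of 9 genes of activated macrophages and microglia (of 10 listed), 7 were lower in the wild-type comparison, with a median of -0.20, while the members were higher. In e/e mice 8 of the 9 were lower (median -0.58). Interferon-gamma-induced genes (10 of 11 listed measured) had e/e medians of -1.83 and 0.69 under PBS and -2.29 and -2.28 under NDP-MSH, so that, as for the members, e/e PBS 2 was the highest e/e array. Their wild-type medians were -0.29 and 0.63 under PBS and 0.41 and 0.32 under NDP-MSH. Unlike for the members, wild-type PBS 2 was thus the highest wild-type array.

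Neuroblast genes (8 of 10 listed) had wild-type medians of -0.05 and -0.02 under PBS and 0.07 and 0.33 under NDP-MSH, with Dlx5 at 1.17 in the second, the array that also held Cdhr1 and 7 of the 9 replication maxima. In the e/e comparison their median was 0.02, with 4 of 8 higher. Genes of oligodendrocyte precursors (8 of 8 measured) had medians of 0.06 and 0.07 in the wild-type and e/e comparisons, and B cell genes (4 of 5) of -0.11 and 0.05. Homeostatic microglia (7 of 8) had 0.14 and -0.01, vessel cells (8 of 8) 0.14 and 0.00, and neutrophils (6 of 6) 0.12 and -0.14. None of these marker genes passed over all genes in these comparisons. The part of any of these cells in the members' values was not tested.

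**Figure D5:**
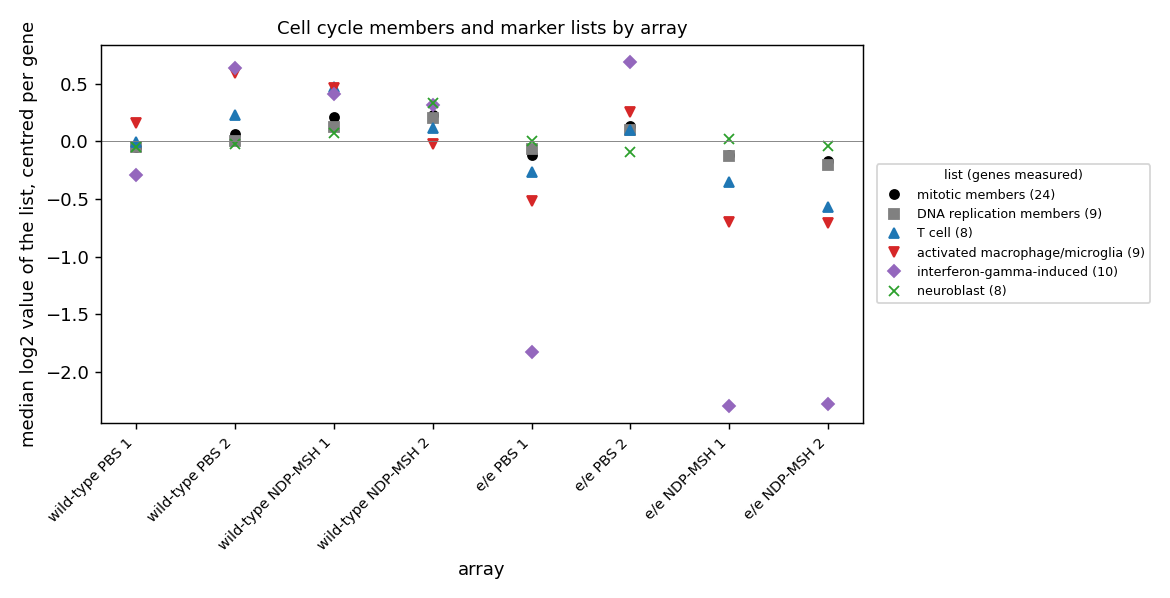
Symbols give the median centred log2 value (y axis) of mitotic members, replication members and 4 marker lists in each array (x axis), with the number of genes measured in the legend. In e/e PBS 2 the members, T cell, macrophage and interferon-gamma lists all lie above e/e PBS 1, and in wild-type NDP-MSH 2 the members lie at 0.23 and 0.21 while the macrophage list lies at -0.02.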

How the data were processed

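Total brain RNA of 8 samples (4 groups of 2) was measured on Affymetrix whole-transcript arrays. The deposited log2 table has 33793 rows, and the sources at hand do not give the authors' summarisation, normalization or log base. Each row is centred on its median (largest absolute median 5e-07). A rounding step (tolerance 0.1 of a step, at least 5 values) placed each row's lowest signal before centring, among values near its median. Platform annotation gave 1 gene symbol to 23521 rows, several to 1814 and none to 8458, and rows of a gene were averaged to 22180 genes. No filter on dim probe sets was used.

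limma 3.58.1 (R 4.3.3) fitted 4 group means over all 8 arrays (4 residual and 3.45 prior degrees of freedom), with two-sided moderated tests and Benjamini-Hochberg adjustment at 0.05. Tested on data simulated for the wild-type contrast (22180 genes), it called 30% of genes changed by 0.5, 94% at 1, 98% at 2 and 100% at 3. The simulated noise was independent between genes, whereas these arrays carry shifts shared by many genes. The shares therefore do not say how often a change of a member would be called. Members and lists were chosen with earlier results of these data known. Members with values per array are those of smallest p (5 mitotic and 3 replication per named comparison) and the extremes of each role, and 2 genes per further list. Members' medians and counts carry no test. Alternatives were other normalizations, a replicate block, array weights, only the 4 arrays compared, genes with a single probe set, robust moderation, a signal of 8 or above, and leaving out each array. Promoters came from RefSeq (GRCm38.p6). Figures used matplotlib 3.10.9 in Python 3.11.15. Slide and scan date were not used here, so batches were not tested.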

Additional observations from a re-analysis of the deposited data

How the results depend on the processing

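Quantile normalization, centring on array medians, array weights, only the 4 arrays compared, genes with a single probe set and robust moderation left the member medians of each comparison within their replicate SD and called 0 members. The replicate block gave the same medians (0.21 in wild-type and -0.14 in e/e mice) and 0 members called. Deviations of same-numbered arrays correlated at -0.251 to 0.443 between groups, so the numbers were not taken as pairs. Only Mcm6 has a lowest signal of 8 or above, so that setting gave no member median. Leaving out each array in turn gave these ranges. In wild-type mice the mitotic median lay between 0.173 and 0.309, and mitotic minus replication between -0.073 and 0.079. In e/e mice the members called were 0 to 1, the median of all members lay between -0.239 and -0.017, mitotic between -0.234 and 0.004, replication between -0.242 and -0.081, and their gap between -0.012 and 0.085. For the difference of effects the ranges were 0.232 to 0.466 for all members, 0.221 to 0.542 for mitotic, 0.273 to 0.408 for replication and -0.052 to 0.214 for the gap. For e/e PBS minus wild-type PBS they were -0.145 to 0.127, -0.149 to 0.126, -0.117 to 0.168 and -0.136 to 0.008 in that order. The cause of these changes was not tested. Over all genes the wild-type calls, 39 in the fit reported, were 15 after quantile normalization, 14 with the replicate block, 5 with only the 4 arrays, and 0 to 49 without an array; the e/e calls, 0 as reported, reached 51 without e/e PBS 1. With 2 arrays per group the precision is limited.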
